A study of Rattus norvegicus with 10 samples.

Results

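The FOXO factors Foxo1, Foxo3 and Foxo4 and the ubiquitin ligase genes Fbxo32 (atrogin-1), Trim63 (MuRF1), Fbxo21, Fbxo30 and Fbxo31 were followed in rat gastrocnemius, a calf muscle, under graded calorie restriction (CR). These 8 genes were chosen by name, with earlier results of these data known. Every probe set that the platform annotation pairs with one of them alone was taken, giving 14 of 31099 probe sets on the array. Of the 14, 11 passed the filter on low signal, which kept the brighter 50% of non-control probe sets by mean log2 signal (15521), and the 3 below it (1 of Foxo1 and 2 of Foxo3) are given as values with no test. The brightest probe set of each gene stood for the gene in counts, and all 8 of these passed the filter.

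Male Wistar rats received 5%, 10%, 20% or 30% less food than controls from 6 weeks of age, for 1 week or for 1 month, and controls received the full recorded intake. RNA of the 5 rats of a group was pooled on 1 array, after a fast of 16 h in all groups, so there were 10 arrays (8 restricted and 2 control) and no replicate of any group. A ratio of 1 array to its control therefore has no replicate check, the p-values rest on deviations from a line or from a mean over pooled groups, and the number of arrays limits the precision. On the 1-week control and 1-week 5% CR arrays, a second label line states the opposite feeding to the title. The titles were followed here, and results were repeated with these arrays exchanged.

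FOXO factors are transcription factors that insulin and growth factor signalling holds out of the nucleus, through phosphorylation by the kinase Akt. When that signal falls, as in fasting, they enter the nucleus and switch on genes of autophagy and of the ubiquitin-proteasome system. Atrogin-1 and MuRF1 are the ubiquitin ligases best known for rising in wasting muscle, and in mouse muscle Fbxo21, Fbxo30 and Fbxo31 have been placed under the same factors. FOXO activity is set largely by phosphorylation and location, which transcript signal does not measure.

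The tissue carried the markers of its label. Mean log2 signal of 14 skeletal muscle genes was 13.19 to 13.25 on the 1-week restricted arrays, against 13.11 on their control. At 1 month it was 12.56 to 12.87, against 13.12. Of 7 liver genes, 0 passed the filter. The 11 slow fibre genes averaged 8.65 to 9.70 log2 on the 1-week restricted arrays, against 7.95 on the control of that duration, and 8.61 to 9.17 on the 1-month restricted arrays, against 8.99 on their control. The ratio of the 3' to the 5' actin probe set, a sign of RNA integrity, was 1.24 to 1.56 on the 1-week restricted arrays, against 1.70 on the control of that duration, and 1.37 to 1.61 against 1.44 at 1 month. The trimmed mean signal was 86.44 on each 1-month array and 99.64 on each 1-week array, so the arrays were scaled to different levels in the 2 durations.

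Of the 8 members, 6 have an entry in the RefSeq promoter table of the GRCr8 assembly, which holds 250 bases before and 50 after the annotated start of a gene. The 250 bases before the start are shown for the pair of members in which the FOXO motif or its core was found, Trim63 at chr5:151816986-151817235 on the plus strand and Fbxo21 at chr12:44266036-44266285 on the minus strand. Capitals mark the FOXO site with its flanking base in Trim63 and the shorter FOXO core in Fbxo21, both read here as the reverse complement of the motif.
Trim63 promoter: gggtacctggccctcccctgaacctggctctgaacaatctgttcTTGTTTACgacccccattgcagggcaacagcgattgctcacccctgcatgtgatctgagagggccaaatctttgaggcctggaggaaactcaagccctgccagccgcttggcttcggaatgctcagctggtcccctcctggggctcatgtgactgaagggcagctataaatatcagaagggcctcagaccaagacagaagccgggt
Fbxo21 promoter: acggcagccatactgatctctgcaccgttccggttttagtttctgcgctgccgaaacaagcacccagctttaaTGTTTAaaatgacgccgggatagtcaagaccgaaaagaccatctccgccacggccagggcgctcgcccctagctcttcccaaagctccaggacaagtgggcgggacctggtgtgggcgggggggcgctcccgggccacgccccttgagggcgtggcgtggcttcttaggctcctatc

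Motifs were searched on both strands of the 300-base windows. The FOXO site GTAAACA stood in the Trim63 window at −205 to −199 from the annotated start and with its flanking base (GTAAACAA) at −206 to −199. The site without the flank was present in 3.78% of 33469 RefSeq promoters and the site with it in 1.1%. Directly before it, at −219 to −207, lay the core of a glucocorticoid response element (GAACA and TGTTC with any 3 bases between them), which was found in 17 promoters, or 0.0508%. A TATA box (TATAAA) followed at −42 to −37, a motif of 14.2% of promoters. The Fbxo21 window held the core TAAACA alone, at −177 to −172, which 13.7% of promoters hold and which lies within the longer sites. GTAAACA had no match in the windows of Foxo1, Foxo4, Fbxo30, Fbxo31 or Fbxo21. A match of letters is a description of the sequence and not evidence of binding.

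Foxo3, the factor that in mouse muscle drives atrogin-1 and autophagy genes, was the only one of the 8 genes to pass the tests of restriction over all arrays. The gene lies on chromosome 20 of GRCr8 at 47251968 to 47348254. At 1 week, its brightest probe set (1376593_at) had signals of 243.9, 295.3, 296.6, 355.4 and 378.6 at 0%, 5%, 10%, 20% and 30% CR. At 1 month the signals were 237.5, 325.3, 337.8, 334.4 and 395.5 at the same levels. Every restricted array lay above both controls, and the 30% array was the highest of each duration. The signal at 30% CR was 1.67-fold that of the control at 1 month and 1.55-fold at 1 week.

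**Figure D1:**
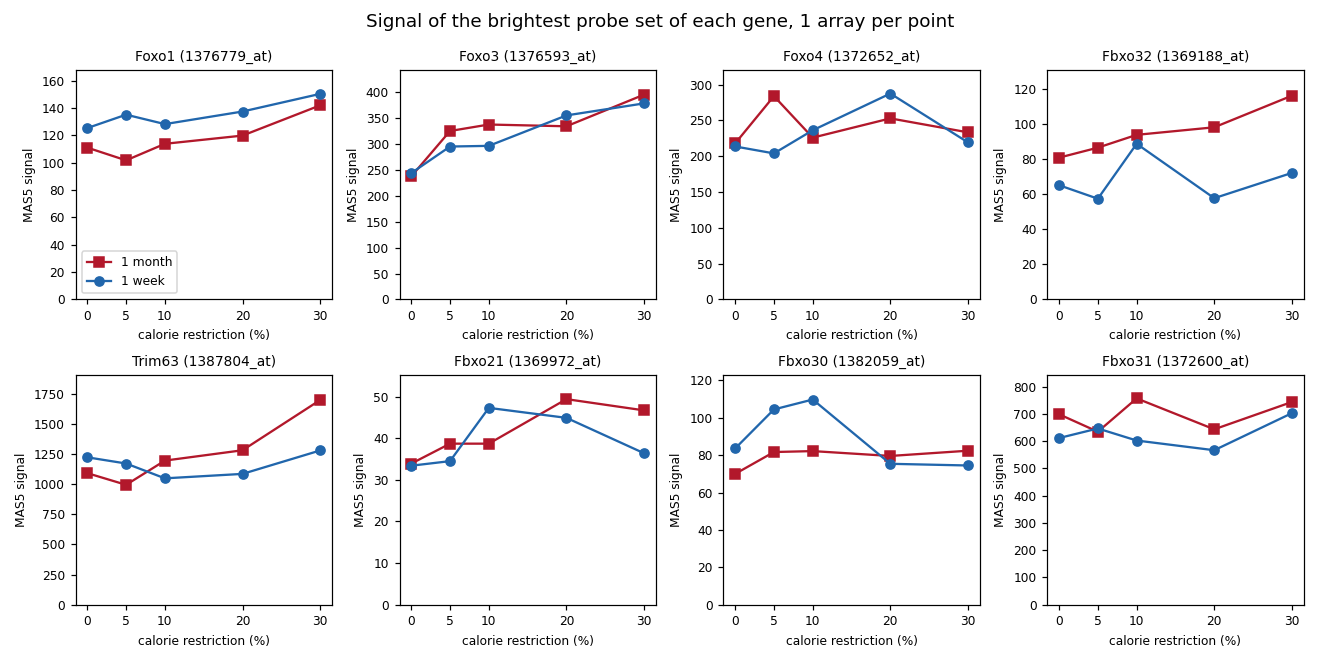
MAS5 signal (linear, from 0) of the brightest probe set of each gene against the level of restriction in percent, with squares for 1 month and circles for 1 week and 1 array per point. Foxo3 lies between 295.3 and 395.5 on the restricted arrays, above both controls, and Trim63 reaches 1696.5 at 30% CR for 1 month.

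Whether expression followed the level of restriction was asked by regressing log2 signal on the level across the 10 arrays, with a term for duration (limma). Of the 8 genes, 1 rose and 0 fell, while 2% of all tested probe sets passed (0.941% rose and 1.06% fell). The gene was Foxo3, whose log2 signal rose by 0.19 ± 0.04 per 10 percentage points (SE, adjusted p = 0.0119, 95% confidence interval 0.116 to 0.269), and it ranked 108 of 15521 probe sets by p. The median slope of the 8 genes was 0.099 log2 per 10 points against −0.0033 for all tested probe sets. At an unadjusted p under 0.05 there were 3 of the 8 genes and 14.3% of all probe sets.

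A contrast of the 8 restricted arrays with the 2 controls, with a term for duration, gave the average difference over levels. Again 1 of 8 genes rose and 0 fell, beside 2% of all tested probe sets (1.13% rose and 0.876% fell), and the gene was Foxo3. Its log2 signal averaged 8.40 ± 0.15 (SD, n = 8) on the restricted arrays and 7.91 on the 2 control arrays, and the fitted difference was 0.49 ± 0.11 log2 (SE, adjusted p = 0.0272), or 1.41-fold. In bulk muscle, more transcript per fibre and a larger share of cells with the transcript cannot be told apart. The fitted differences of the other 7 genes, at their brightest probe sets, were 0.01 to 0.31 log2 and did not pass. The second probe sets had −0.30 for Foxo1, −0.26 for Fbxo21 and 0.10 for Fbxo30, and did not pass either.

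The log2 ratio of Foxo3 to the control of its duration was above 0 in all 8 comparisons, at 0.45 to 0.74 at 1 month and 0.28 to 0.63 at 1 week, and 8.2% of all tested probe sets also had 8 ratios above 0. The 4 ratios of a duration share 1 control array. Within 1 duration the slope was 0.19 ± 0.05 at 1 month (adjusted p = 0.362) and 0.20 ± 0.05 at 1 week (adjusted p = 0.0908). The 2 slopes differed by −0.01 ± 0.07 (1 month minus 1 week, 95% confidence interval −0.17 to 0.145, adjusted p = 0.993). Neither slope passed within its duration, where 0.0387% of all tested probe sets did at 1 month and 0.702% at 1 week. Restricted against control did not pass either, at 0.55 ± 0.13 (adjusted p = 0.0833) at 1 month and 0.43 ± 0.16 (adjusted p = 0.422) at 1 week, where 0.831% and 0.219% of probe sets did.

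The Foxo3 calls rested on single arrays and on the variance model. With eBayes without trend, the slope of 0.19 had an adjusted p of 0.0794 and the difference of 0.49 one of 0.11, and with median centring the difference did not pass (adjusted p = 0.108). With the mean of the 3 Foxo3 probe sets in place of the brightest, neither passed (adjusted p = 0.518 for the slope and 0.394 for the difference). The difference was then 0.57, from a mean that takes in dim probe sets below the filter. The slope did not pass without the 1-month control (0.16, adjusted p = 0.0526), without the 1-week control (0.18, adjusted p = 0.0557) or without the 1-week 30% array (0.20, adjusted p = 0.0631). The restricted against control difference did not pass without the 1-month control (0.43, adjusted p = 0.281), without the 1-week control (0.55, adjusted p = 0.145) or without the 1-week 20% array (0.48, adjusted p = 0.0509). With the 1-week control and 5% arrays exchanged, the slope passed (adjusted p = 0.0481) and the difference, at 0.32, did not (adjusted p = 0.502). With the mean of the slow fibre genes as a covariate, the slope was 0.18 (adjusted p = 0.135) and the difference 0.42 (adjusted p = 0.164). Slow fibre signal was lowest on the 1-week control, as was Foxo3 among the arrays of that duration. At 1 month, slow fibre signal on the control was 8.985 log2, within the 8.605 to 9.165 of the restricted arrays. Foxo3 was lowest on the control there too. The part of slow fibre signal in the result was not tested beyond this fit.

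A second Foxo3 probe set (1376210_at), below the filter on low signal, had signals of 3.5, 11.3, 14.7, 14.9 and 13.4 at 0% to 30% CR at 1 week and 6.0, 12, 12.8, 8.2 and 14.0 at 1 month. Its 8 log2 ratios were also all above 0, at 0.45 to 1.22 at 1 month and 1.69 to 2.09 at 1 week. The dimmest (1376229_at) had signals of 0.5 to 2.7 on the 8 restricted arrays, against 2.5 on the 1-week and 1.0 on the 1-month control, with no common direction. Over the 10 arrays, centred within each duration, the brightest and the second probe set had a Pearson r of 0.793 as a description.

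**Figure D2:**
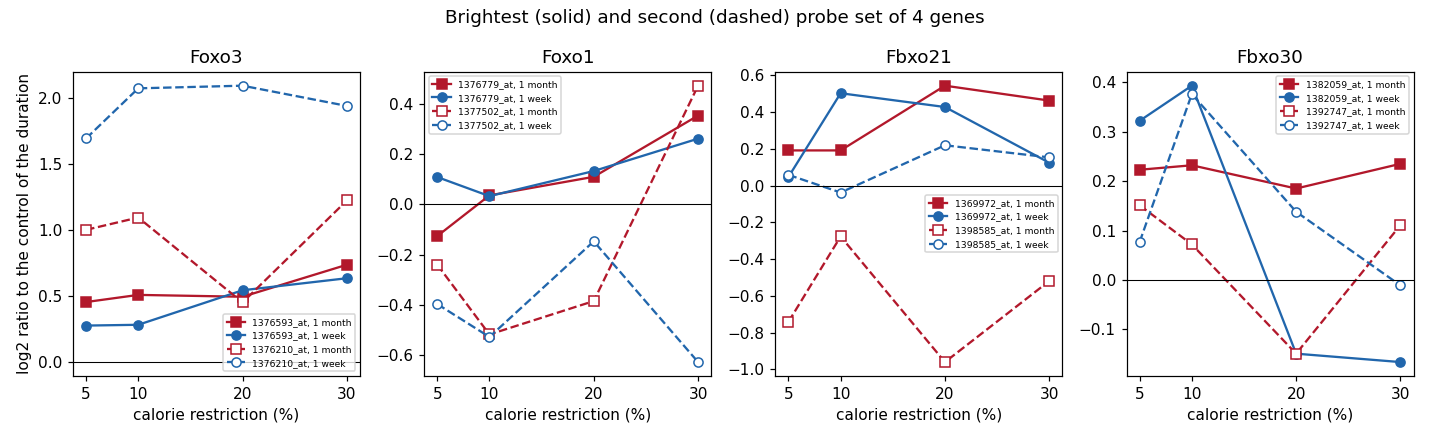
Log2 of signal over that of the duration's control array against the level of restriction in percent, for the brightest (solid lines, filled) and second (dashed, open) probe set of Foxo3, Foxo1, Fbxo21 and Fbxo30, with squares for 1 month and circles for 1 week. Both Foxo3 probe sets lie above 0 at every level, while the 2 probe sets of Fbxo21 lie on opposite sides of 0 at 1 month.

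Foxo1, the factor that in mouse muscle lowers mass when it is overexpressed, did not pass either test. Its brightest probe set (1376779_at) had signals of 125.3, 135.1, 128.2, 137.4 and 150.3 at 0% to 30% CR at 1 week and 111.0, 101.7, 113.8, 119.8 and 141.9 at 1 month. The 30% array was the highest at each duration, and 7 of 8 log2 ratios were above 0. The slope was 0.10 ± 0.04 log2 per 10 points (unadjusted p = 0.011, adjusted p = 0.176), and among the 8 restricted arrays alone 0.12 ± 0.05 (adjusted p = 0.357).

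Other Foxo1 probe sets gave another picture. The second (1377502_at) had signals of 24.3, 22.2, 28.9 and 20.7 at 5% to 30% CR at 1 week, against 32 in the control, and of 17.7, 14.6, 16.0 and 29.0 at 1 month, against 20.9. Its log2 ratios were below 0 in 7 of 8 comparisons. The dimmest (1375688_at), below the filter on low signal, had 0.8 to 2.0 on the restricted arrays, against 6.8 on the 1-week control and 1.7 on the 1-month control. With the mean of the 3 probe sets in place of the brightest, the slope of Foxo1 turned to −0.08 and the difference from control to −0.58, neither passing. The mean of the 8 log2 ratios was 0.11 for the brightest, −0.30 for the second and −1.56 for the dimmest. The probe set below the filter thus weighed most in that difference.

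Foxo4, an X-linked FOXO factor expressed in muscle, had no common trend. Its signals (1372652_at) were 213.7, 204.0, 236.3, 287.6 and 219.4 at 0% to 30% CR at 1 week and 217.9, 284.0, 226.0, 252.9 and 233.4 at 1 month. The highest array was the 20% array at 1 week and the 5% array at 1 month. The slope was 0.03 ± 0.05 log2 per 10 points (95% confidence interval −0.066 to 0.13, adjusted p = 0.809), and the restricted arrays differed from control by 0.16 ± 0.12 log2 (adjusted p = 0.584).

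Trim63 encodes MuRF1, a RING-type ligase that marks thick filament proteins such as myosin heavy chain, and lies on chromosome 5 of GRCr8 at 151817209 to 151831026. The promoter window above was counted from an annotated start inside this interval, so the end of the printed sequence overlaps it. Its signals (1387804_at) were 1221.8, 1170.4, 1047.4, 1084.3 and 1278.4 at 0% to 30% CR at 1 week and 1090.5, 993.7, 1194.5, 1280.2 and 1696.5 at 1 month. At 1 month the 5% array lay below the control and each higher level was brighter than the one below it, whereas at 1 week the restricted arrays lay on both sides of the control. The 30% array was 1.56-fold its control at 1 month and 1.05-fold at 1 week.

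Over all 10 arrays, the slope of Trim63 was 0.12 ± 0.04 log2 per 10 points (unadjusted p = 0.0119, adjusted p = 0.183). Without the 1-month 30% array it was 0.05 (adjusted p = 0.622), so the value rests on that array. Among the 8 restricted arrays alone, a comparison that leaves out both controls, the slope was 0.17 ± 0.05 (adjusted p = 0.179), and 0 of 8 genes passed in limma beside 0.245% of all tested probe sets. At an unadjusted p under 0.05 there were 3, Foxo1, Foxo3 and Trim63, beside 10.4% of all tested probe sets. In that comparison it was 0.23 and passed (adjusted p = 0.0491) without the 1-week 5% array, and it was 0.10 without the 1-month 30% array (adjusted p = 0.521).

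The durations were read apart for Trim63. Among the 4 restricted arrays of 1 month it rose by 0.28 ± 0.04 log2 per 10 points (adjusted p = 0.0192), the only 1 of the 8 genes to pass there, beside 0.329% of all tested probe sets, and the slope among the 4 restricted arrays of 1 week was 0.06 ± 0.05 (adjusted p = 0.604). With the controls included, the slope was 0.23 ± 0.05 at 1 month (adjusted p = 0.166) and 0.02 ± 0.04 at 1 week (adjusted p = 0.906). The difference between these slopes was 0.21 ± 0.07 (1 month minus 1 week, unadjusted p = 0.00839, adjusted p = 0.78). No probe set passed for a difference of slopes in limma (0% of 15521), and 940 had an unadjusted p under 0.05, so a difference between durations was not shown. The difference of restricted minus control also passed for no probe set when compared between durations (1121 at an unadjusted p under 0.05), with Trim63 at 0.31 ± 0.28 and Foxo3 at 0.11 ± 0.22 log2 (1 month minus 1 week).

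Fbxo32 encodes atrogin-1, the F-box subunit that brings targets such as MyoD to an SCF ligase. Its signals (1369188_at) were 65.1, 57.4, 88.7, 57.7 and 72.1 at 0% to 30% CR at 1 week and 80.8, 86.5, 93.8, 98.1 and 116.1 at 1 month. The 1-month arrays went up in the order of the level, and the 30% array was 1.44-fold its control, while at 1 week the 10% array stood above the others. The slope was 0.09 ± 0.06 log2 per 10 points over all arrays (adjusted p = 0.516), 0.16 ± 0.05 at 1 month (adjusted p = 0.424) and 0.02 ± 0.10 at 1 week (adjusted p = 0.947), so none of these passed.

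**Figure D3:**
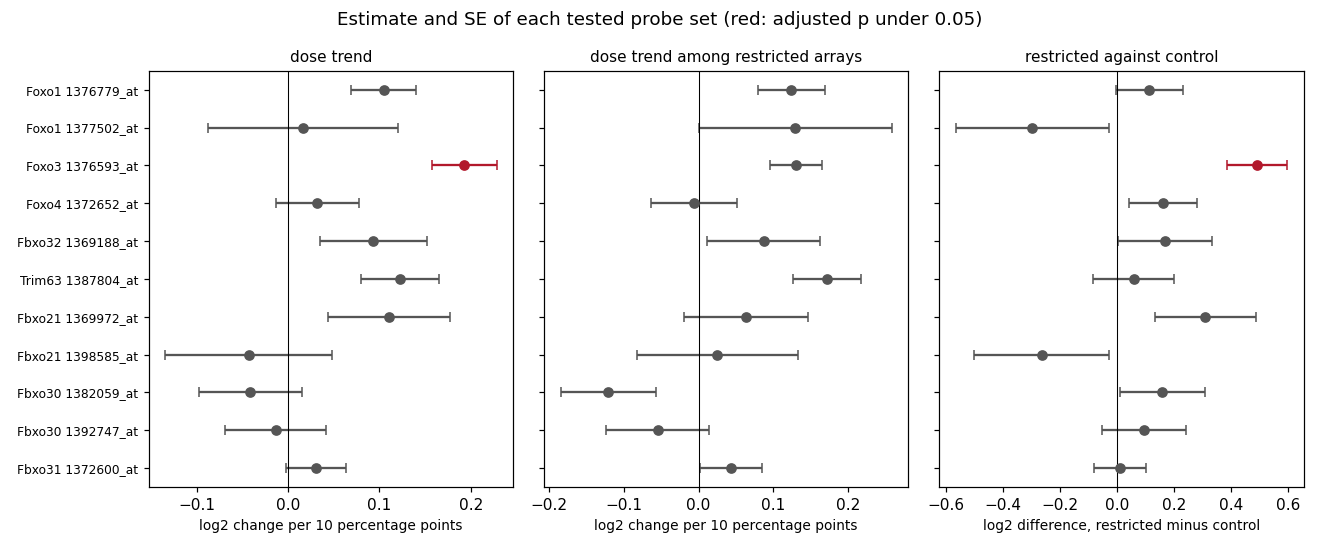
Fitted log2 estimates with their SE (bars) for the 11 tested probe sets, as the change per 10 percentage points of restriction over all 10 arrays, the same over the 8 restricted arrays, and the difference of restricted minus control arrays, with estimates that passed in red. Only Foxo3 1376593_at is red, at 0.19 per 10 points and 0.49 for restricted minus control.

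Fbxo21, an F-box protein also called SMART in muscle, had 8 of 8 log2 ratios above 0 at its brightest probe set. The signals (1369972_at) were 33.4, 34.5, 47.3, 44.9 and 36.4 at 0% to 30% CR at 1 week and 33.9, 38.7, 38.7, 49.4 and 46.7 at 1 month. Both controls were the lowest arrays of their duration, but the difference of restricted minus control arrays, 0.31 ± 0.18 log2, did not pass (adjusted p = 0.459). A second probe set (1398585_at) had 27.9, 26.1, 31.2 and 29.8 at 5% to 30% CR at 1 week, against 26.8 in the control, and 19.2, 26.5, 16.5 and 22.4 at 1 month, against 32.1. At 1 month the 2 probe sets thus lay on opposite sides of their control, and over the 10 arrays their Pearson r was −0.506.

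Fbxo30 encodes MUSA1, an F-box protein that in mouse muscle is held down by BMP signalling. The signals of its brightest probe set (1382059_at) were 83.6, 104.5, 109.8, 75.4 and 74.5 at 0% to 30% CR at 1 week and 70, 81.7, 82.2, 79.6 and 82.4 at 1 month. All restricted arrays were above control at 1 month, whereas at 1 week the 5% and 10% arrays were above it and the 20% and 30% arrays below. The slope was −0.04 ± 0.06 log2 per 10 points (adjusted p = 0.798). A second probe set (1392747_at) ranged over 44.0 to 66.2 on the restricted arrays, against 51.0 on the 1-week and 48.8 on the 1-month control.

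Fbxo31, an F-box protein that targets cyclin D1 for degradation, had signals (1372600_at) of 611.5, 646.6, 602.4, 566.8 and 702.8 at 0% to 30% CR at 1 week and 698.8, 634.7, 757.0, 643.6 and 743.8 at 1 month. Restricted arrays lay on both sides of the control in each duration, with 4 of 8 log2 ratios above 0. The slope was 0.03 ± 0.03 log2 per 10 points (95% confidence interval −0.04 to 0.101, adjusted p = 0.733). The restricted arrays differed from control by 0.01 ± 0.09 log2 (95% confidence interval −0.183 to 0.207).

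Taken by level, the number of the 8 genes with a log2 ratio above 0 was 5, 8, 7 and 8 at 5%, 10%, 20% and 30% CR for 1 month. At the same levels for 1 week it was 5, 6, 4 and 7. The 4 counts of a duration share 1 control array and are not independent. Over all tested probe sets, the median ratio of these arrays was −0.016 to 0.017. The median of the 8 ratios was 0.41 at 30% CR for 1 month, against −0.02 for all tested probe sets, and 0.14 at 30% CR for 1 week, against −0.004. Of the 64 ratios, 3 were at least 1.5-fold, all upward, and 11.5% of all ratios of the tested probe sets reached that size in either direction. They were Foxo3 and Trim63 at 30% CR for 1 month and Foxo3 at 30% CR for 1 week.

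The durations were set against each other with the level as a covariate. Fbxo32 was the 1 gene of 8 that passed, beside 33.9% of all tested probe sets (1.13% higher and 32.8% lower at 1 month). Its signals were 80.8 to 116.1 with a median of 93.8 at 1 month and 57.4 to 88.7 with a median of 65.1 at 1 week, and the fitted difference was 0.49 ± 0.13 log2 (adjusted p = 0.00961). The median difference of all tested probe sets was −0.21 log2. With quantile normalization, under which that median was 0.01 and 45.9% of called probe sets were higher at 1 month, in place of 3.33%, the difference of Fbxo32 was 0.70 (adjusted p = 0.00295), and with median centring (median 0.08 and 68.6% higher) it was 0.78 (adjusted p = 0.0017).

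The other 7 genes did not pass for duration, and for some the direction or the call depended on the scaling, the filter, the variance model or a single array. Foxo1 had −0.21 ± 0.08 log2 as deposited (adjusted p = 0.0507), and 0.003 with quantile normalization and 0.09 with median centring. The same estimate passed with the 70th percentile filter (adjusted p = 0.0404) and with eBayes without trend (adjusted p = 0.0462), and without the 1-month 30% array Foxo1 had −0.24 and passed (adjusted p = 0.0429). Fbxo30 likewise had −0.16 ± 0.12, turning to 0.06 and 0.13. Fbxo31 had 0.15 ± 0.07 (adjusted p = 0.109) and passed under both, at 0.35 and 0.45, and Foxo3 and Trim63 passed with median centring alone, at 0.35 and 0.38. Age and the scaling of the arrays cannot be told apart from duration, since rats fed for 1 month were also older when sampled.

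Patterns over the arrays were compared by Pearson correlation of log2 signal centred within each duration, over 10 arrays that share 2 control pools and 1 scaling per duration, as a description only. Among the 8 genes, the highest was 0.885 between Foxo1 and Trim63, followed by 0.675 between Foxo1 and Foxo3, and the lowest was −0.736 between Foxo4 and Fbxo31. Foxo3 and Trim63 had 0.458, and Trim63 and Fbxo32 had 0.457. The pair of classic atrophy ligases was thus not the closest on these arrays.

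Among 12508 other probe sets with a gene, those nearest to Foxo3 were Sult1a1, a sulfotransferase, at 0.986, with Cir1 and Ocrl at 0.978. Nearest to Foxo1 were Ctss, the lysosomal protease cathepsin S, at 0.962, the macrophage lysozyme Lyz2 at 0.94 and the NF-Y subunit Nfyc at 0.935. Nearest to Trim63 were the splicing factor Srsf5 at 0.933, the proteasome ATPase Psmc2 at 0.929 and the spliceosome protein Snrpe at 0.92. For Fbxo32 they were Map4k3 at 0.939, Rhog at 0.931 and Cd74 at 0.908. The nearest genes of Foxo4 (Polb, 0.949), Fbxo21 (Nrbp2, 0.94), Fbxo30 (Aplnr, 0.961) and Fbxo31 (Eif3c, 0.926) were of other functions.

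Some markers of other cell types also passed. Over all tested probe sets, 0.941% rose and 1.06% fell with the level, and 1.13% rose and 0.876% fell against control. Of 10 tested macrophage markers, 2 rose with the level (C1qb and C1qc) and 1 in restricted against control arrays (Cd163). The slopes of the other tested ones ran from −0.04 (Csf1r) to 0.375 (Cd163) and did not pass. Mean log2 signal over 12 macrophage markers was 5.32 to 5.47 on the 1-week restricted arrays, against 4.97 on their control. At 1 month it was 4.97 to 5.69, against 4.99. Of 12 fibroblast markers, 4 rose with the level and 3 against control. Their means on the restricted arrays were 9.56 to 9.63 at 1 week, against 9.32, and 8.77 to 9.24 at 1 month, against 8.79. Of 6 tested adipocyte markers 2 rose with the level. Means over 10 adipocyte markers were 4.68 to 5.45 at 1 week, against 4.16, and 4.32 to 4.97 at 1 month, against 4.67. Of 9 endothelial markers 0 rose and 1 fell with the level, the VEGF receptor Kdr at −0.37 log2 per 10 points (adjusted p = 0.00153). Endothelial means were 6.27 to 6.72 at 1 week, against 6.34, and 5.94 to 6.16 at 1 month, against 6.19. None of the slow fibre, fast fibre, Schwann cell or erythroid markers passed either test in limma. The macrophage markers Adgre1 and Itgam did not pass the filter on low signal, nor did the adipocyte markers Lep, Plin1, Cidec and Ucp1. Their part in the Foxo1 and Foxo3 values was not tested.

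Genes around the FOXO factors were read from 7 lists of 206 entries, chosen, like the members, with earlier results of these data known. Among 25 tested regulators of FOXO, 1 rose with the level and 0 fell (0.941% and 1.06% of all tested probe sets), Sgk1, a kinase that phosphorylates Foxo3, at 0.18 ± 0.04 log2 per 10 points (adjusted p = 0.0258). None of the 25 passed in restricted against control arrays in limma (1 at an unadjusted p under 0.05), where the smallest p belonged to the kinases Akt1 at −0.20 ± 0.08 (adjusted p = 0.222) and Mapk8 at −0.19 ± 0.09 (adjusted p = 0.371). The median slope of the list was −0.0197 against −0.0033 for all tested probe sets.

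Of 31 tested FOXO targets of muscle other than the members, 7 rose with the level and 0 fell. The median slope was 0.0742, with 24 of 31 above 0. Over all tested probe sets, 0.941% rose, 1.06% fell and 48.3% had a slope above 0. Since the list was chosen with earlier results of these data known, its counts are a description and not independent support. Angptl4, an inhibitor of lipoprotein lipase, had 0.44 ± 0.07 log2 per 10 points (adjusted p = 0.00484), Ppargc1a, a coactivator of mitochondrial genes, 0.27 ± 0.07 (adjusted p = 0.0496), Klf15, a factor induced by glucocorticoids, 0.26 ± 0.06 (adjusted p = 0.0286), and Pdk4, a kinase that shuts off pyruvate dehydrogenase, 0.23 ± 0.03 (adjusted p = 0.00464). In restricted against control arrays 3 of 31 rose and 0 fell, beside 1.13% and 0.876% of all tested probe sets: the PI3 kinase inhibitor Pik3ip1 by 1.32 ± 0.13 log2, the autophagosome protein Gabarapl1 by 0.51 ± 0.11 and the stress factor Nfe2l2 by 0.46 ± 0.09. Among the restricted arrays 1 of the 31 rose with the level, beside 0.129% of all tested probe sets. It was Ddit4, an inhibitor of mTORC1 picked out here after its values were seen. Its slope there was 0.69 ± 0.08 per 10 points (adjusted p = 0.00478), with log2 ratios of −0.25 to 0.98 at 1 month and −1.62 to 0.79 at 1 week.

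**Figure D4:**
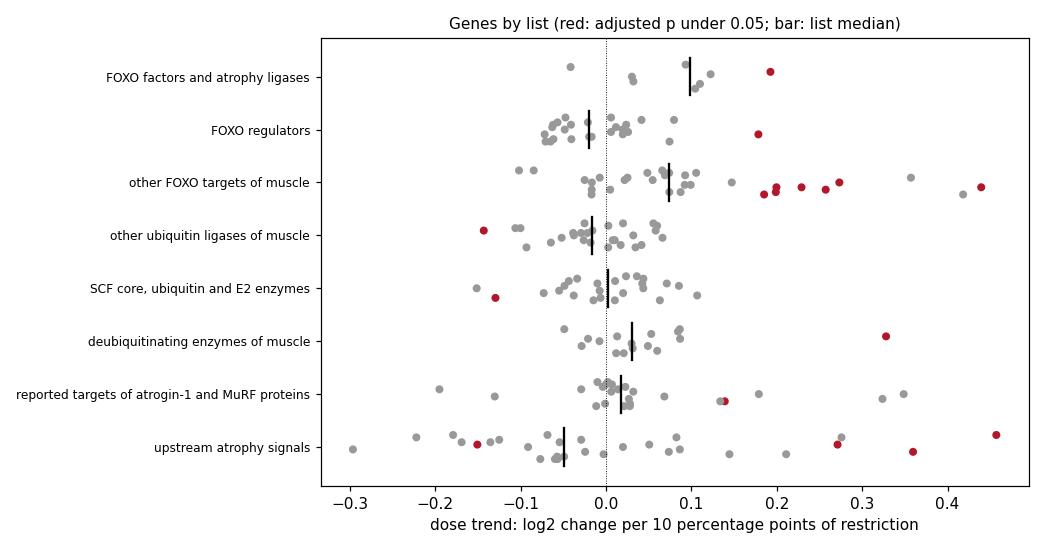
Slope of log2 signal per 10 percentage points of restriction for each tested gene (1 point per gene, by its brightest probe set), by list, with the list median as a bar and genes that passed in red. The FOXO factors and atrophy ligases have a median of 0.099 and 1 gene in red. The other FOXO targets have a median of 0.0742 and 7 in red. Members and lists were chosen with earlier results of these data known.

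Other parts of the ubiquitin system were read against the 2% of all tested probe sets that passed each test. Of 27 tested other ubiquitin ligases of muscle, 0 rose and 1 fell with the level, Asb5, a SOCS-box ligase subunit, at −0.14 ± 0.03 log2 per 10 points (adjusted p = 0.0229), and none passed against control in limma (4 at an unadjusted p under 0.05), with Asb2 at −0.47 ± 0.13 (adjusted p = 0.0955) and Fbxo9 at 0.24 ± 0.09 (adjusted p = 0.195). Of 24 SCF core, ubiquitin and E2 genes, 0 rose and 1 fell with the level, the E2 enzyme Ube2r2 at −0.13 ± 0.03 (adjusted p = 0.0318), and none passed against control in limma (5 at an unadjusted p under 0.05), with Ube2j1 at 0.35 ± 0.11 (adjusted p = 0.122) and Ube2d1 at 0.22 ± 0.07 (adjusted p = 0.125). Among 16 deubiquitinating enzymes, Usp2 rose by both tests, by 0.33 ± 0.08 per 10 points (adjusted p = 0.0366) and by 1.03 ± 0.15 against control (adjusted p = 0.00246), and no other passed.

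Of 24 proteins reported as targets of atrogin-1 and the MuRF ligases, Vim, the intermediate filament vimentin of fibroblasts and young muscle cells, was the only one whose transcript passed, at 0.14 ± 0.03 per 10 points (adjusted p = 0.0308) and 0.38 ± 0.08 against control (adjusted p = 0.0273). In each of these tests 2% of all tested probe sets passed. Of 29 tested upstream atrophy signals, 3 rose and 1 fell with the level, beside 0.941% and 1.06% of all tested probe sets. Fkbp5, a glucocorticoid-induced chaperone, rose by 0.36 ± 0.04 (adjusted p = 0.00131), the interleukin 6 receptor Il6r by 0.46 ± 0.10 (adjusted p = 0.031) and the metallothionein Mt2A by 0.27 ± 0.06 (adjusted p = 0.0236). Smad3, a mediator of myostatin signalling, had −0.15 ± 0.04 (adjusted p = 0.0489). Against control 0 rose and 2 fell, beside 1.13% and 0.876% of all tested probe sets, Tnfrsf12a, the TWEAK receptor, at −1.07 ± 0.22 (adjusted p = 0.0222) and Smad3 at −0.42 ± 0.09 (adjusted p = 0.0311).

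Of the genes named from these lists, Angptl4, Pdk4 and Fkbp5 passed for the slope, and Pik3ip1 against control, without each of the 10 arrays in turn, and Ddit4 passed for the slope among the 8 restricted arrays without each of them in turn. Each of the other named genes that had passed lost a call without 1 to 8 of the arrays. Of the 12 other alternatives, the slope lost its call in 3 for Pdk4, 2 for Angptl4 and 1 for Fkbp5. Against control, Pik3ip1 lost its call in 2 of 11. With eBayes without trend Ddit4 did not pass (adjusted p = 0.136). With the 1-week control and 5% arrays exchanged, Ddit4 did not pass either (adjusted p = 0.164), and none of the named genes passed against control, where Pik3ip1 had 0.74 (adjusted p = 0.488) and Usp2 0.51 (adjusted p = 0.57).

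Fkbp5 and Trim63 can be read side by side at 1 month. The log2 ratios of Fkbp5 were 0.66, 0.73, 0.91 and 1.37 at 5%, 10%, 20% and 30% CR, and those of Trim63 were −0.13, 0.13, 0.23 and 0.64. At 1 week they were 0.17, 0.48, 0.95 and 0.92 for Fkbp5 and −0.06, −0.22, −0.17 and 0.07 for Trim63. Fkbp5 was thus above control on every restricted array, whereas Trim63 was above it on 3 of 4 arrays at 1 month and 1 of 4 at 1 week. Fkbp5 is 1 gene picked from the upstream atrophy signals. In the same list, log2 ratios of Tsc22d3 at 5%, 10%, 20% and 30% CR were −0.25, −0.22, 0.11 and 0.47 at 1 month. At 1 week its log2 ratios were 0.05, 0.02, 0.12 and 0.30. Those of Cebpd were −0.22 to 0.22 at 1 month and −0.89 to −0.13 at 1 week. Klf15, from the list of other FOXO targets, had 0.56 to 1.01 at 1 month and −0.045 to 0.86 at 1 week. A part of glucocorticoids in the Trim63 values was not tested.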

How the data were processed

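The authors hybridized 1 pooled RNA per group to an Affymetrix rat genome expression array and deposited 1 signal intensity per probe set and array, made with MAS5 per the submitters' processing notes and scaled array by array. No detection calls were used. Signals below 0.1 were set to 0.1, converted to log2 and, for the 15521 of 31099 probe sets with a mean log2 at or above the 50th percentile (a mean signal of at least 17.84, with 57 control probe sets left out), fitted in R 4.3.3 by limma 3.58.1, lmFit followed by eBayes with trend. P-values were adjusted over all tested probe sets by Benjamini-Hochberg at 0.05. The comparisons were the slope on the level per 10 percentage points, restricted against control, the slope among restricted arrays, duration, and the differences of slope and of restricted against control between durations. Residual degrees of freedom were 7, 5 for restricted arrays alone, and 6 for the differences. They were fewer in the fits to the arrays of 1 duration.

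Gene names came from the platform annotation, matched to RefSeq GRCr8 by gene identifier. A gene stood by its brightest probe set. From each list, up to 4 genes with the largest estimates that passed were named, or the 2 with the smallest p, and for each member the 3 nearest genes. The members, lists and tests were chosen with earlier results of these data known. Scripts were tested on simulated data. Alternatives covered scaling, filters, log transform, variance model, probe set choice, exchanged labels, slow fibre signal, single durations, the rank of the level, leaving out each array and, added after the data were seen, the level as a block for duration and all settings for Ddit4.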

Additional observations from a re-analysis of the deposited data

How the results depend on the processing

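With a single pooled array per group, no alternative adds replication, and depth in the sense of signal over background limits the dim Foxo1 and Foxo3 probe sets below the filter. No paired analysis was possible because each group had 1 array, with no replicate numbers to pair. The 2 durations can be matched by level, and with the level as a block over those 5 pairs, an alternative added after the data were seen, duration passed for 4865 probe sets and for Fbxo32 (adjusted p = 0.0118) alone of the 8 genes.

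Of the 8 genes, the number that passed for the slope was 0, in place of 1, with eBayes without trend, the slow fibre covariate, the mean over all probe sets of a gene, 1 week alone or 1 month alone, and 0 to 1 without each array in turn. For restricted against control it was 0, in place of 1, with median centring, eBayes without trend, the exchanged arrays, the slow fibre covariate, the mean over all probe sets of a gene, 1 week alone or 1 month alone, and 0 to 1 without each array. Among restricted arrays it was 1, in place of 0, in 1 month alone, and 0 to 1 without each array. For duration it was 2 with quantile normalization, the 70th percentile filter or eBayes without trend and 4 with median centring, in place of 1, and 1 to 2 without each array. Of the 64 single-array ratios, 21 reached 1.2-fold and 0 reached 2-fold, and 6 reached 1.5-fold with median centring, in place of 3. The cause of these changes was not tested.

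Over all tested probe sets, the slope passed for 310 and for 6 to 433 under the alternatives (86 to 368 without each array), restricted against control for 311 and for 1 to 332 (27 to 455), the slope among restricted arrays for 38 and for 1 to 51 (6 to 35), restricted against control by duration for 0 and for 0 to 5 (0 to 26), and duration for 5263 and for 1365 to 5331 (4402 to 4932). With median centring, 58.2% of called probe sets rose with the level in place of 47.1%, and 70.8% in place of 52.6% among restricted arrays.

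None of the estimates that changed sign passed in the main fit. With quantile normalization Foxo1 and Fbxo30 had 0.0033 and 0.0583 for duration and Foxo4 had 0.0049 for the slope among restricted arrays, and with median centring these were 0.0858, 0.1321 and 0.0138. With the arrays exchanged, restricted against control was −0.0418 for Fbxo30 and −0.0381 for Fbxo31, and the difference of slopes 0.0113 for Foxo3. With the slow fibre covariate, these were −0.0088 for Fbxo31 and 0.0020 for Foxo3. With the mean over all probe sets of a gene, Foxo1 had a slope of −0.0803 and −0.5812 against control, the Foxo3 difference of slopes was 0.0177, and duration was −0.0424 for Foxo3 and −0.1193 for Fbxo21. In 1 week alone, Trim63 had −0.0978 against control, and the slopes among restricted arrays were 0.0536 for Foxo4 and −0.0097 for Fbxo21. In 1 month alone, slopes were −0.0005 for Foxo4 and 0.0486 for Fbxo30, and Fbxo31 had −0.0130 against control. Without each array, restricted against control was −0.0149 to 0.0375 for Fbxo31 and −0.0978 to 0.2166 for Trim63, slopes were −0.0806 to 0.0054 for Fbxo30 and −0.0012 to 0.0432 for Fbxo31, the slope among restricted arrays was −0.0621 to 0.0429 for Foxo4, the difference of slopes −0.0989 to 0.0266 for Foxo3, and duration −0.0003 to 0.1474 for Foxo4, −0.0055 to 0.16 for Trim63 and −0.0238 to 0.1585 for Fbxo21.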
